A study of Mus musculus with 12 samples.

Results

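The genes described here are those known to be enriched in Purkinje cells (PCs), taken from a list of 33 gene names that leaves out the genes of the zebrin stripes. Names were matched to the versioned gene identifiers of the count files through the GENCODE vM21 annotation. Of the 33 names, 32 matched and *Cck2* did not. *Arhgap26* matched 2 rows, so 33 rows of 55536 genes were followed, and these rows are called PC genes below. The second *Arhgap26* row (ENSMUSG00000118193.1) covers 570 exon bases that all lie on exons of other genes, and it is given as the short row. RNA was sequenced from whole cerebellum and whole cerebral cortex of 1-month-old mice, with 3 WT and 3 *Snx14*-KO libraries for each tissue, 12 libraries in all. The labels use the same mouse numbers in both tissues. The *Snx14*-KO mice were C57BL/6J mice homozygous for a 1 bp deletion made with CRISPR in exon 14 of *Snx14*, the gene of a sorting nexin at the endoplasmic reticulum. They came from a single edited line and carried the deletion in all cells, not in PCs alone. The WT mice of each tissue served as controls.

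PCs are the large GABAergic neurons that carry the only output of the cerebellar cortex. Parallel fibers and climbing fibers excite their dendrites, where metabotropic glutamate receptors release calcium from the endoplasmic reticulum through the IP3 receptor. PCs therefore hold large amounts of calcium-binding proteins, of IP3 signaling proteins and of scaffold proteins of the dendritic spine. They are few among the cells of the cerebellum, most of which are granule cells. In RNA of whole tissue, fewer PCs and less RNA per PC cannot be told apart.

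Promoter windows, from 250 bases before to 50 bases after a RefSeq start site on GRCm38.p6, were found for 22 of the PC genes, in 33 windows that overlap where a gene has several starts. They were searched on both strands for motifs bound by the families of factors that are PC genes themselves, and for the TATA box. AGGTCA, the core site of retinoid-related orphan receptors such as *Rora*, stood in 9 of the 33 windows (27.3%), in 6 genes, and in 16.3% of all 32851 windows. The homeodomain core TAATTA was in 1 window (3.03%, 5.29% of all windows) and the forkhead motif TGTTTAC was in 1 (3.03%, 3.65% of all). The TATA box, TATAAA, was in 2 windows (6.06%, 13.6% of all). None of these motifs contains another, and a match says only that the letters are present. The windows below are those of the 5 PC genes with AGGTCA and a higher count in cerebellum than in cortex, each written 5′ to 3′ on the strand of the gene with AGGTCA or its reverse complement TGACCT in capitals. For *Pcp2*, the most upstream window with the motif is shown.
Pcp2: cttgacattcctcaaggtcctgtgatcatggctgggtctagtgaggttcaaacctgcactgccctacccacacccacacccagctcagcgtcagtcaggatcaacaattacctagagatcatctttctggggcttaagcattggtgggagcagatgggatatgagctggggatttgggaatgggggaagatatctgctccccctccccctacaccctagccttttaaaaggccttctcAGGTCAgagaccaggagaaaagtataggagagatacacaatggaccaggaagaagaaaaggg
Homer3: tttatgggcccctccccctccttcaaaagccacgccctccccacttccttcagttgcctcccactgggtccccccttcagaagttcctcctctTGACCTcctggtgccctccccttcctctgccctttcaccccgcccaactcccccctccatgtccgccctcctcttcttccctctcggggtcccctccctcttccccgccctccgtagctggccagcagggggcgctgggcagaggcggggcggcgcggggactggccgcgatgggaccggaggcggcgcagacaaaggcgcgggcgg
Rgs8: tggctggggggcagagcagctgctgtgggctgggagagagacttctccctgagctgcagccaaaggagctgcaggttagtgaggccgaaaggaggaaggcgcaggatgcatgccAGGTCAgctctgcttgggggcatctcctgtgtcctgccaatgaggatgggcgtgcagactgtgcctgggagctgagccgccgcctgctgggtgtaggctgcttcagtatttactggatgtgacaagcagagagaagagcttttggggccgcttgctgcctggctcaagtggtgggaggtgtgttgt
Dner: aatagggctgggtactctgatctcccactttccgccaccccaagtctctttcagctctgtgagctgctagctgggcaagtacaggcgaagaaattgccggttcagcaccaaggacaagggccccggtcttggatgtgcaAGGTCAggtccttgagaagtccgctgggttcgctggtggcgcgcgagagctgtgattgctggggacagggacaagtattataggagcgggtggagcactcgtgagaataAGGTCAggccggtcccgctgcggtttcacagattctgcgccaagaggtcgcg
Pcp4: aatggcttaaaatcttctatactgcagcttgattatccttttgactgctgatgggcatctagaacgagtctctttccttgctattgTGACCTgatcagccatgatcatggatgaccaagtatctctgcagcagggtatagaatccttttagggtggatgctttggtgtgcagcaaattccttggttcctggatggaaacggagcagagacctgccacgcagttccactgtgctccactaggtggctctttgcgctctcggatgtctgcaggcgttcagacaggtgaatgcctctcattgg
These lie at chr8:3625498-3625797 (minus strand), chr8:70282749-70283048 (plus strand), chr1:153665423-153665722 (plus strand), chr1:84696172-84696471 (minus strand) and chr16:96467356-96467655 (plus strand). The *Pcp2* match begins 12 bases before the start site. The first match begins 157 bases before it in *Homer3*, 136 in *Rgs8*, 111 in *Dner* and 164 in *Pcp4*, and *Dner* holds 2 matches.

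The libraries held 16672589 to 19887427 read pairs on genes. Normalized counts are given as CPM, counts scaled to a common library size with TMM normalization within the 6 libraries of a tissue. *Snx14* itself was at 10.9 to 11.8 CPM in *Snx14*-KO cerebella and 66.2 to 70.3 CPM in WT cerebella. Read pairs were counted without regard to strand, and 7 of the PC gene rows share over 10% of their exon bases with another gene, so that part of their counts can belong to that gene. These are *Pcp2* (51.5%, with *Pet100*), *Gng13* (51.6%, with *Chtf18*), *Homer3* (25.4%, with *Ddx49*), *Slc32a1* (24.9%, with *Gm14205*), *Pcp4* (23.7%, with *Igsf5*), *Stac* (11.3%, with *Gm43236*) and the short *Arhgap26* row (100%).

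The first comparison asked how far the PC genes stand out in the tissue that holds PCs. Genes were tested with edgeR's quasi-likelihood test, p values were adjusted by Benjamini-Hochberg over all genes tested, and a gene was called where the adjusted p was under 0.05 and the log2 fold change was over 0.50 in either direction. In WT mice, 27 of the 33 PC gene rows were called higher in cerebellum than in cortex, against 19% of all 18543 genes, and 4 were called lower, against 21.4%. The median log2 fold change of cerebellum over cortex was 2.99 for the PC genes and 0.02 for all genes. In *Snx14*-KO mice, which share no library with that comparison, 27 were called higher (18.2% of all 18542 genes) and 3 lower (19.6%), with a median of 2.92.

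The PC genes with the highest log2 fold changes had different roles. *Skor2*, a transcriptional corepressor of PC development, had 997 read pairs in the 3 WT cerebella and 0 in the 3 WT cortices, which makes it at least 370-fold higher. *Lhx1*, a LIM homeodomain factor, had 3379 read pairs in WT cerebella and 13 in WT cortices, a 290-fold difference (95% counting interval 169 to 545). Its relative *Lhx5* was 120-fold higher (69.7 to 225). These intervals and the bound cover counting error only. WT cortex 1 held 11 of the 13 cortex read pairs of *Lhx1* and 10 of the 13 of *Lhx5*, so both folds depend on that library. With 1 library left out, the log2 fold change ran from 7.54 to 9.97 for *Lhx1* (8.02 with all) and from 6.27 to 8.17 for *Lhx5* (6.75 with all). *Ppp1r17*, an inhibitor of protein phosphatases, was at 292, 298 and 259 CPM in WT cerebella and at 0.913, 0.411 and 0.432 CPM in WT cortices, a log2 fold change of 8.77. *Atp2a3*, a calcium pump of the endoplasmic reticulum, had a log2 fold change of 6.60. That of *Car8*, which binds the IP3 receptor and lowers its affinity for IP3, was 6.40, and that of *Pcp2*, a modulator of G protein signaling, was 6.36. In each of these genes, every cerebellum lay above every cortex.

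**Figure D1:**
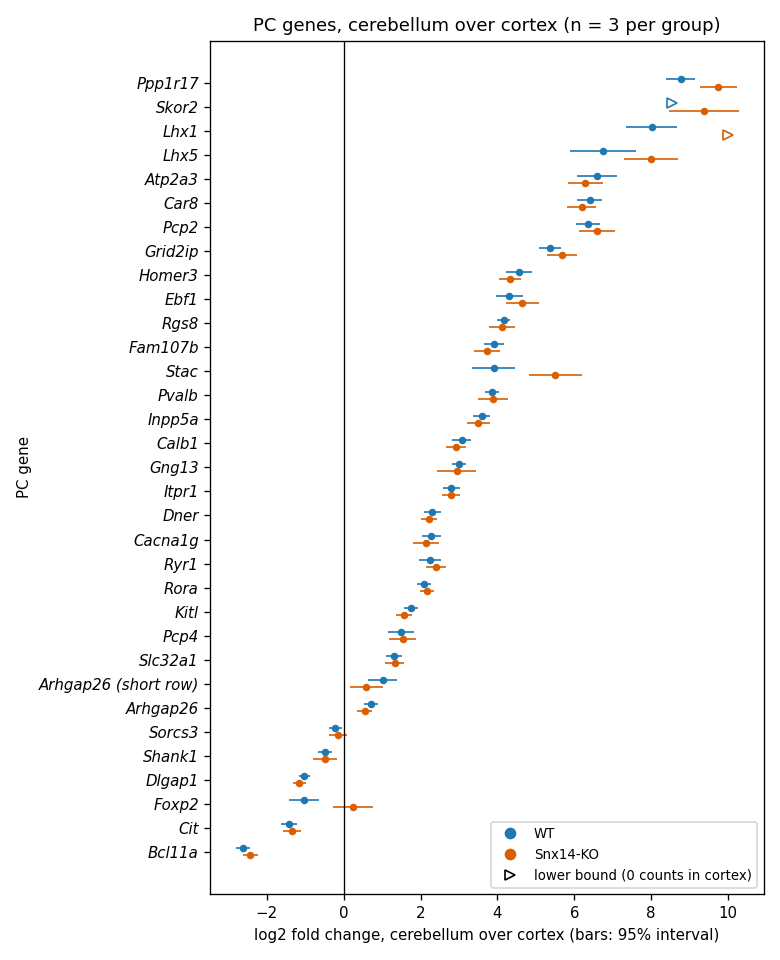
Log2 fold change of cerebellum over cortex for each PC gene in WT and *Snx14*-KO mice, with 95% intervals from the quasi-likelihood fit; triangles are lower bounds for genes with 0 counts in the cortex of that genotype. Most genes lie right of 0, and *Sorcs3*, *Shank1*, *Dlgap1*, *Cit* and *Bcl11a* lie left of it in both genotypes.

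Calcium buffers were also called higher in cerebellum, by smaller folds. *Calb1* (calbindin) was at 1507, 1615 and 1259 CPM in WT cerebella and at 173, 160.5 and 145 CPM in WT cortices, a log2 fold change of 3.07. *Pvalb* (parvalbumin), also made by interneurons of both tissues, had a log2 fold change of 3.86, and *Pcp4*, a calmodulin regulator, one of 1.49. *Slc32a1*, the vesicular GABA transporter that all GABAergic neurons use, had 1.31.

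A group of the PC genes was not higher in cerebellum than in cortex. The list names genes enriched in PCs, which a comparison of whole tissues does not test. Called lower were *Bcl11a*, a zinc finger factor (log2 fold change -2.62), *Cit*, the citron kinase (-1.42), *Foxp2*, a forkhead factor (-1.03), and *Dlgap1*, a postsynaptic scaffold protein (-1.02). *Shank1*, a scaffold of excitatory synapses, and *Sorcs3*, a sorting receptor, had log2 fold changes of -0.49 and -0.22, under the fold threshold (edgeR adjusted p = 0.000395 and 0.0373). Each of these 6 genes had counts in every cortex library, which holds no PCs.

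Per kilobase of counted exon (RPKM), the PC genes spanned a wide range in WT cerebella. *Pvalb* was highest at 1115 ± 73.2 RPKM (SD, n = 3), rank 12 among the genes tested, followed by *Pcp4* at 740.0 ± 126 and *Car8* at 561 ± 44.7. *Pvalb* did not overlap *Pcp4* in any library, while *Pcp4* and *Car8* overlapped. *Calb1*, *Pcp2* and *Itpr1* followed at 301, 290 and 257 RPKM, with each overlapping the next. *Bcl11a* and *Foxp2* were lowest, at 1.27 and 0.699 RPKM.

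The second comparison asked whether the PC genes differed between *Snx14*-KO and WT cerebella. None of the 33 rows was called by edgeR's quasi-likelihood test, against 0.00549% of the 18201 genes tested, which is *Snx14* alone. At an unadjusted p under 0.05, 2 PC genes were higher and 1 was lower, against 5.78% and 2.37% of all genes. DESeq2 called 164 genes in all, among them 1 PC gene, *Foxp2*. The log2 fold change was below 0 for 28 of the 33 rows and for 50.1% of all genes, and the median was -0.08 for the PC genes and -0.00 for all genes. Without *Snx14*-KO cerebellum 3, only 18 of the 33 were below 0 and the median was -0.02, the nearest to 0 with 1 library left out. The median was farthest from 0 without *Snx14*-KO cerebellum 2 (-0.18) and without WT cerebellum 3 (-0.17).

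**Figure D2:**
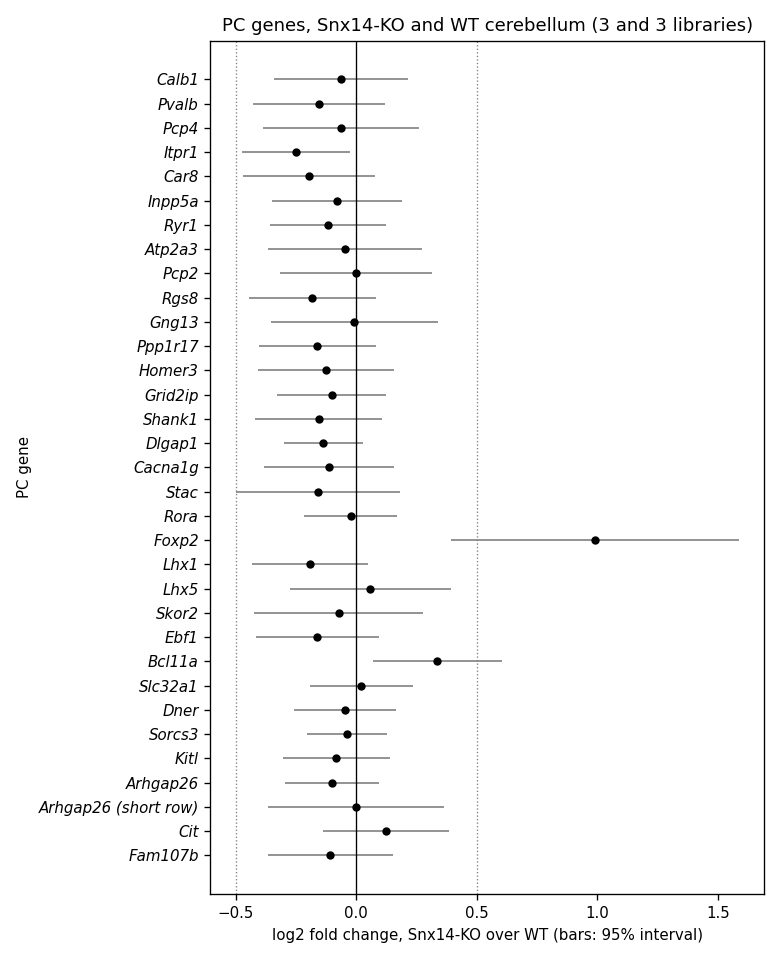
Log2 fold change of *Snx14*-KO over WT cerebellum for each PC gene row, with 95% intervals from the quasi-likelihood fit; dotted lines mark the fold threshold. Most points lie slightly left of 0 with intervals that cross it, and *Foxp2* lies farthest right at 0.99.

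The calcium buffers showed small differences. *Calb1* was at 1411, 1580.3 and 1183 CPM in *Snx14*-KO cerebella, within the range of the WT values apart from the lowest library, and reached 95.8% of the WT level (95% interval 79.0 to 116%). *Pvalb* was at 1069, 1205 and 842 CPM against 1218, 1191 and 1075 CPM in WT (89.8%, 74.3 to 109%). *Pcp4* reached 95.8% (76.6 to 120%). The groups overlapped in each of these genes.

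Of the calcium store and IP3 genes, *Itpr1*, the IP3 receptor, showed the clearest difference. It was at 4402, 4919 and 4827 CPM in WT and at 4292, 4121 and 3439 CPM in *Snx14*-KO cerebella. All *Snx14*-KO values lay below all WT values, for a log2 fold change of -0.25 (SE 0.0987, unadjusted p = 0.032, edgeR adjusted p = 0.533). *Car8* was at 2137, 2345 and 2003 CPM in WT and at 1931, 2163 and 1540.2 CPM in *Snx14*-KO cerebella, 87.3% of WT (72.1 to 106%), with overlap. *Inpp5a*, which removes a phosphate from IP3, was at 94.6% (78.6 to 114%), *Ryr1*, the ryanodine receptor, at 92.3% (78.0 to 109%), and *Atp2a3* at 96.7% (77.5 to 121%).

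G protein and phosphatase genes overlapped as well. *Pcp2* was at 615, 500 and 475 CPM in WT and at 518, 630.0 and 433 CPM in *Snx14*-KO cerebella, 99.9% of WT (80.2 to 124%). *Gng13*, a G protein gamma subunit, was at 99.5% (78.3 to 126%), *Rgs8*, which speeds the shutdown of G proteins, at 88.2% (73.4 to 106%), and *Ppp1r17* at 89.5% (75.5 to 106%). Scaffold genes were at 89.8% (*Shank1*) to 93.2% (*Grid2ip*, a partner of the delta glutamate receptor). *Dlgap1* was at 287, 327 and 297 CPM in WT and 274, 286 and 265 CPM in *Snx14*-KO cerebella, without overlap, with an edgeR adjusted p = 0.723. Among the 33 rows, 2 lay below the WT range without overlap and 2 above it, against 5.76% and 6.68% of all genes.

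None of the remaining PC genes passed the test. *Cacna1g*, a T-type calcium channel, was at 92.6% of WT (76.8 to 112%) and *Stac*, an adaptor of voltage-gated calcium channels, at 89.6% (70.7 to 114%). *Lhx1* was at 87.6% (74.2 to 104%), *Ebf1*, a factor of neuronal differentiation, at 89.4% (74.9 to 107%), *Skor2* at 95.1% (74.6 to 121%), *Lhx5* at 104% (82.6 to 131%) and *Rora*, a nuclear receptor needed for PC maturation, at 98.4% (86.0 to 113%). *Dner*, a ligand that signals from PCs to Bergmann glia, was at 96.8% (83.7 to 112%). *Kitl*, the ligand of the Kit receptor of interneurons, was at 94.4% (80.9 to 110%), and *Sorcs3* at 97.5% (86.9 to 109%). *Slc32a1* was at 102% (87.5 to 118%), *Arhgap26*, a GTPase-activating protein, at 93.2% (81.5 to 107%), its short row at 100.0% (77.6 to 129%), *Cit* at 109% (90.9 to 131%) and *Fam107b* at 92.9% (77.6 to 111%).

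**Figure D3:**
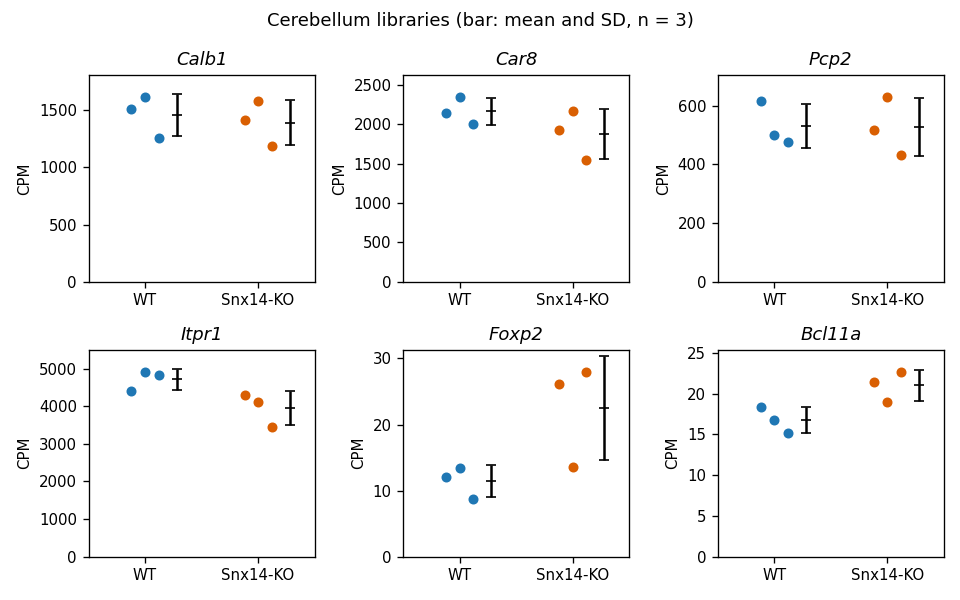
CPM of 6 PC genes in each cerebellum library, with mean and SD (n = 3) beside the points and axes from 0. *Calb1*, *Car8* and *Pcp2* overlap between genotypes, *Itpr1* lies lower in *Snx14*-KO, and 2 of the 3 *Snx14*-KO libraries are high in *Foxp2*.

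*Foxp2* had the highest log2 fold change of the PC genes. It was at 11.98, 13.5 and 8.79 CPM in WT and at 26.2, 13.5 and 27.99 CPM in *Snx14*-KO cerebella. *Snx14*-KO cerebella 1 and 3 were high, and *Snx14*-KO cerebellum 2 stood level with the highest WT library. The log2 fold change was 0.99 (SE 0.264, 95% interval 0.39 to 1.59, edgeR adjusted p = 0.321). The gene was called by DESeq2 (0.98, adjusted p = 0.0103), in the fit over all genes with a count (0.98, adjusted p = 0.0025) and, by edgeR, without *Snx14*-KO cerebellum 2 (1.24, adjusted p = 0.0108). Those settings called 164, 347 and 254 genes in all. Over all settings tried its adjusted p ran from 0.0025 to 0.977. *Bcl11a* was at 18.3, 16.75 and 15.2 CPM in WT and at 21.5, 18.9 and 22.7 CPM in *Snx14*-KO cerebella, without overlap, for a log2 fold change of 0.34 (unadjusted p = 0.0194, edgeR adjusted p = 0.46). *Foxp2* and *Bcl11a*, both called lower in WT cerebellum than in WT cortex, are the PC genes above 0 with an unadjusted p under 0.05.

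Markers of forebrain neurons were measured in the same cerebella. Of 12 such genes, 8 were tested and 0 called by edgeR's quasi-likelihood test, against 0.00549% of all genes. At an unadjusted p under 0.05, 3 were higher and 1 was lower, against 5.78% and 2.37% of all genes. *Rasgrf2* had the highest log2 fold change of the list, 2.10, with 6.22, 5.14 and 4.28 CPM in WT and 28.2, 5.77 and 32.7 CPM in *Snx14*-KO cerebella. *Bcl11b*, chosen for mention after its values were seen, was at 1.44, 1.81 and 2.03 CPM in WT and at 7.92, 1.67 and 6.45 CPM in *Snx14*-KO cerebella, and was the gene of the list that DESeq2 called (adjusted p = 0.0445). *Camk2a*, the third of the higher genes and likewise chosen, was at 141, 149.9 and 143 CPM in WT and at 216, 142 and 194 CPM in *Snx14*-KO cerebella. *Snx14*-KO cerebella 1 and 3 were high in these 3 genes, as in *Foxp2*, and *Snx14*-KO cerebellum 2 was not. Of the 8 genes tested, 4 were above 0 and 4 below, with a median of 0.10. *Neurod2* had the lowest log2 fold change, -0.37. It was the only gene of the list above 0 in WT cerebellum over WT cortex (0.30), so it does not mark forebrain neurons alone. *Neurod2* was at 116, 110 and 110.5 CPM in WT and 84.2, 105 and 69.5 CPM in *Snx14*-KO cerebella, and these values enter the summed level. The summed level of the list was 325, 327 and 312 CPM in WT and 392, 314 and 359 CPM in *Snx14*-KO cerebella. Its score, the mean of log2(CPM + 1) after centring each gene on the 6 cerebella, was -0.0883, -0.15 and -0.0828 in WT and 0.20, -0.0436 and 0.16 in *Snx14*-KO cerebella, without overlap. *Fezf2*, a defining forebrain gene not tested for its low counts, was at 0.00 to 0.12 CPM. The part of such cells in the *Foxp2* values was not tested.

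Levels of the PC genes also varied between libraries of the same genotype. Their mean log2(CPM + 1), after the mean of the 6 cerebella was subtracted from each gene, was 0.07, 0.11 and -0.10 in WT and 0.03, 0.07 and -0.18 in *Snx14*-KO cerebella. Their summed level was 18189, 19113 and 16938 CPM in WT and 16969, 17965 and 13896 CPM in *Snx14*-KO cerebella. *Snx14*-KO cerebellum 3 was the lowest of the 6 libraries for 24 of the 33 rows (72.7%), against 20.5% of all genes, and WT cerebellum 2 was the highest for 17 (51.5%), against 14.6%.

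**Figure D4:**
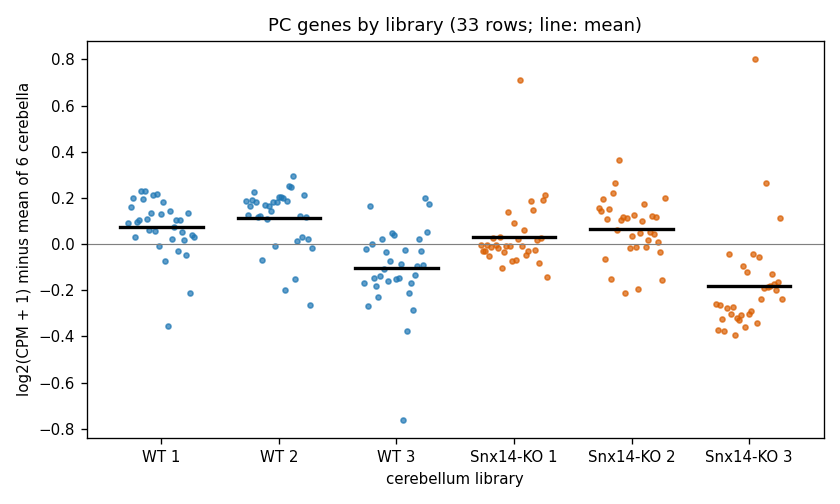
Deviation of log2(CPM + 1) from the mean of the 6 cerebella for each PC gene row in each library, with the mean as a line. The mean is lowest in *Snx14*-KO 3 (-0.18) and in WT 3 (-0.10), so libraries of both genotypes lie below 0.

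*Snx14*-KO cerebellum 3 also stood apart in microglia markers, and markers of further cells were read in the same libraries. The score of 12 microglia and macrophage genes, all with a count in each library, was 1.18 there and -0.50 to 0.02 in the other cerebella, and their summed level was 707 CPM against 231 to 304 CPM. None of the 12 had a log2 fold change below 0 in *Snx14*-KO cerebella, against 50.1% of all genes. Of the 12, 8 were higher with an unadjusted p under 0.05, against 5.78%, and 1 lay above the WT range without overlap, against 6.68%. The score of 12 Bergmann glia and astrocyte genes was -0.14, -0.0718 and -0.0720 in WT and -0.0193, 0.0953 and 0.20 in *Snx14*-KO cerebella, without overlap. Of these genes, 9 were above 0, 6 of them with an unadjusted p under 0.05, against 5.78% of all genes, and 5 lay above the WT range without overlap, against 6.68%. All 13 granule cell genes had a log2 fold change below 0 in *Snx14*-KO cerebella (median -0.30), 7 with an unadjusted p under 0.05, against 2.37% of all genes, and their summed level was 4616 to 5482 CPM in WT and 3830 to 4824 CPM in *Snx14*-KO cerebella. All 14 meningeal fibroblast genes were above 0 (median 1.16), 12 with an unadjusted p under 0.05, against 5.78% of all genes, with summed levels of 871 to 1161 CPM in WT and 2090.0 to 2308 CPM in *Snx14*-KO cerebella. None of the genes in these 4 lists was called by edgeR's quasi-likelihood test. DESeq2 called 11 of the 14 meningeal genes higher, 1 of the 13 granule cell genes lower (*Fat2*, named after its values were seen), and none of the microglia or Bergmann glia genes. All 10 oligodendrocyte genes were below 0 (median -0.16), with summed levels that overlapped between the genotypes. All 8 choroid plexus genes were below 0 (median -0.74), with summed levels of 78.9, 2877 and 7827 CPM in WT and 2141, 3368 and 1022 CPM in *Snx14*-KO cerebella, so WT cerebellum 1 stood far below the rest. Of 8 endothelial genes, 6 were above 0 (median 0.18), 2 of them with an unadjusted p under 0.05, against 5.78% of all genes. Molecular layer interneuron genes (7, median -0.03), Golgi cell genes (3, median -0.04) and unipolar brush cell genes (2, median -0.56) were mostly below 0. No gene of these lists was called by edgeR's quasi-likelihood test or DESeq2. The part of these cells in the PC gene values was not tested.

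**Figure D5:**
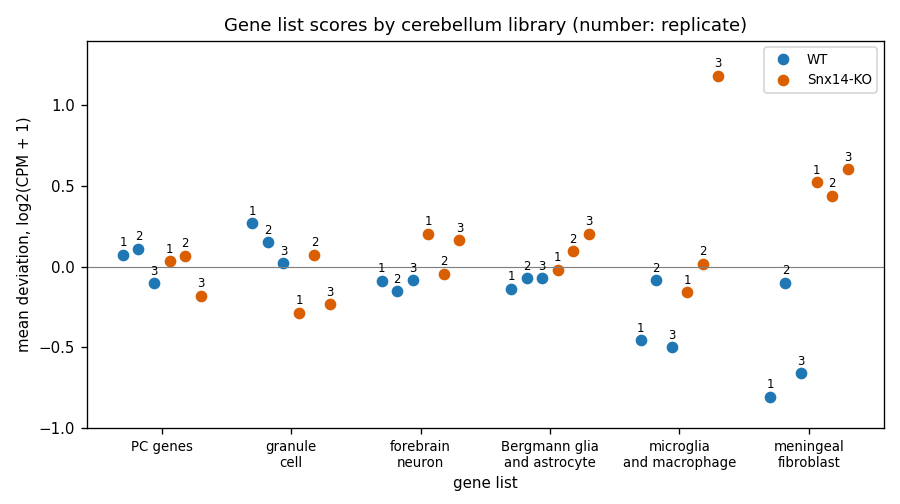
Score of 6 gene lists in each cerebellum library, the mean over genes of log2(CPM + 1) less its average over the cerebella, with the replicate number above each point. The PC gene, granule cell and microglia scores overlap between genotypes, the meningeal, Bergmann glia and forebrain scores do not, and the microglia score is highest in *Snx14*-KO 3 at 1.18.

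The signaling pathway of PC synapses was read from a list of 34 other genes. None was called by edgeR's quasi-likelihood test or DESeq2, 25 were below 0, against 50.1% of all genes, and the median was -0.06. Between the WT tissues, 13 of its genes were called higher in cerebellum, against 19% of all genes, and 11 lower, against 21.4%, with a median of 0.02. *Camk4*, a calmodulin-dependent kinase, was at 96.2, 93.4 and 98.9 CPM in WT and 70.4, 76.5 and 64.1 CPM in *Snx14*-KO cerebella, without overlap, for a log2 fold change of -0.44 (edgeR adjusted p = 0.145). With DESeq2 it was -0.46 (adjusted p = 0.00054), under the fold threshold. *Prkg1*, a cGMP-dependent kinase, and *Plcb4*, the phospholipase that makes IP3 below the glutamate receptor, had log2 fold changes of -0.30 and -0.18 (unadjusted p = 0.0293 and 0.0291). *Grip1*, an AMPA receptor scaffold, had 0.40 (unadjusted p = 0.0215).

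In cortex, 29 of the 33 rows had enough counts to be tested, without *Ppp1r17*, *Lhx1*, *Lhx5* and *Skor2*. None was called by edgeR's quasi-likelihood test, against 0.00548% of 18255 genes, or by DESeq2, which called 9 genes in all. The log2 fold change was below 0 for 16 rows, against 50% of all genes, with a median of -0.00, and 2 rows had an unadjusted p under 0.05, against 4.5%. *Itpr1* was at 563, 594 and 699.8 CPM in WT and 525, 494 and 545 CPM in *Snx14*-KO cortices, without overlap, for a log2 fold change of -0.24 (SE 0.0833, unadjusted p = 0.0125, edgeR adjusted p = 0.996). In cerebellum it was -0.25, and the difference between the tissues was -0.02 (95% interval -0.31 to 0.27). *Stac* was near the limit of counting, at 1.52, 0.874 and 0.702 CPM in WT and 0.119, 0.472 and 0.283 CPM in *Snx14*-KO cortices.

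An interaction term, fitted to the 12 libraries together, tested whether the genotype difference of a gene was unequal in cerebellum and cortex. No PC gene was called by edgeR's quasi-likelihood test, against 0% of 19380 genes, or by DESeq2, which called 35 genes in all. By edgeR, 3 PC genes had an unadjusted p under 0.05, against 5.68%. The interaction was 1.27 for *Foxp2* (95% interval 0.56 to 1.98, edgeR adjusted p = 0.407) and 1.60 for *Stac* (adjusted p = 0.518). The third gene, *Lhx1*, had 0 counts in *Snx14*-KO cortices and is given no fold. Without *Snx14*-KO mouse 2, *Foxp2* was called (1.46, adjusted p = 0.00907), as 1 of 246 genes. Between *Snx14*-KO cerebellum and cortex, *Foxp2* had a log2 fold change of 0.24 (adjusted p = 0.416), against -1.03 in WT mice.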

How the data were processed

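RNA of cerebellum and cerebral cortex was sequenced from 3 WT and 3 *Snx14*-KO mice per tissue. The labels give the same mouse numbers in both tissues, and the main fits did not pair libraries by these numbers. The authors mapped the reads to GRCm38 with STAR and deposited raw counts of read pairs per gene from featureCounts (Subread 2.0.1). Per the file headers, strand was not used in the counting and a pair on overlapping genes went to each. The methods call the libraries strand-specific, while the labels name a kit that is not marked as such. Numbered features without a gene (0.0506% to 0.0632% of counts) were left out.

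Genes passing filterByExpr were tested with edgeR 4.0.16 (quasi-likelihood, TMM) in R 4.3.3, and DESeq2 1.42.0 was an alternative. RPKM values divide CPM by counted exon length. In counts simulated for the cerebellum comparison over 18201 genes, 100 genes with a mean over 1 CPM were changed by each fold. At an adjusted p under 0.05, without the fold threshold, edgeR recovered 74% of genes changed 2-fold and 44% of those changed 1.5-fold. Recovery with the fold threshold, or with fewer genes changed, was not simulated. Replicates differed by more than sampling noise (chi-square per gene at least 6.42). Scores are means of log2(CPM + 1).

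Every matched name of the list is given. Of other lists, the genes with an unadjusted p under 0.05 (synaptic signaling) or the lowest and highest log2 fold change may be named. The members and lists were chosen with earlier results of these data known. The labels give cerebellum and cortex libraries the same mouse numbers, which were taken as the same mouse in the paired alternative. Correlations of paired deviations were 0.12, 0.19 and 0.08 in WT and 0.37, 0.03 and 0.12 in *Snx14*-KO mice, not all above 0.1. Between genotypes a number is only a name.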

Additional observations from a re-analysis of the deposited data

How the results depend on the processing

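Calls of PC genes changed for *Foxp2* and in few other places. In cerebellum, 1 PC gene was called with DESeq2 and with all genes with a count, and 0 to 1 with 1 library left out. The PC genes below 0 numbered 18 to 29 with 1 library left out, and their median ran from -0.18 to -0.02. Over all genes, 164 were called by DESeq2, 2 with upper-quartile normalization, 347 with all genes with a count, 25 in one fit over 12 libraries, and 1 to 254 with 1 library left out, the highest without *Snx14*-KO cerebellum 2. In cortex these were 9 by DESeq2, 149 with all genes with a count, 2 in one fit over 12 libraries and 1 to 2 with 1 library left out, and the median of the PC genes ran from -0.0712 to 0.0133. For the interaction, 35 genes were called by DESeq2, 386 with all genes with a count (3 of them PC genes), and 0 to 246 with a mouse left out (0 to 1 of them PC genes). Without the 8 members known in other cerebellar cells too, the median of cerebellum over cortex was 3.90 in WT and 3.73 in *Snx14*-KO mice. Left out were *Pvalb*, *Slc32a1*, *Kitl*, *Sorcs3*, *Bcl11a*, *Dlgap1*, *Shank1* and *Cit*. All of these but *Pvalb*, *Slc32a1* and *Kitl* had a log2 fold change of cerebellum over cortex below 0 in both genotypes. The higher median therefore follows from the choice of genes left out, and it does not test enrichment in PCs. Over all 33 rows, the median in *Snx14*-KO mice ran from 2.76 to 3.03 with 1 library left out. In cerebellum, *Pcp2* had a log2 fold change of 5.46e-05 with upper-quartile normalization, and the short *Arhgap26* row had 0.00127 with it and 0.00292 with the replicate block. That block changed no call of a PC gene in any comparison, and between genotypes the numbers do not pair the mice (correlations -0.10 to 0.09). With 1 library left out, the log2 fold change in cerebellum crossed 0 for *Calb1* (-0.17 to 0.0339), *Pcp4* (-0.20 to 0.0381), *Inpp5a* (-0.19 to 0.0189), *Atp2a3* (-0.19 to 0.0700), *Pcp2* (-0.16 to 0.12), *Gng13* (-0.23 to 0.13), *Rora* (-0.0798 to 0.0737), *Lhx5* (-0.11 to 0.21), *Skor2* (-0.20 to 0.0397), *Slc32a1* (-0.0522 to 0.10), *Dner* (-0.13 to 0.0188), *Sorcs3* (-0.0798 to 0.00782), *Kitl* (-0.18 to 0.00214) and the short *Arhgap26* row (-0.11 to 0.11). The direction held under each setting for 19 of the 33 rows in cerebellum and for all 33 between the WT tissues. The causes were not tested. Counting PC genes with *Arhgap26* in a single row was an alternative chosen after seeing the data.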
